A study of Homo sapiens with 6 samples.

Results

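The 9 P2Y nucleotide receptor genes *P2RY1*, *P2RY2*, *P2RY6*, *P2RY8*, *P2RY10*, *P2RY11*, *P2RY12*, *P2RY13* and *P2RY14* were followed through a knockdown of *SPINK2* in FUJIOKA, a cell line from human acute myeloid leukaemia, by bulk RNA sequencing. They were taken by symbol from a table of 63236 genes, and the family was chosen for the higher level of *P2RY13* in the knockdown. The members were therefore chosen on the comparison of shSPINK2 with shNEG, and their values in it are given as a description, without p-values. Other genes were tested and carry adjusted p-values. The 3 shNEG libraries came from cells with a non-targeting control shRNA and the 3 shSPINK2 libraries from cells with an shRNA against *SPINK2*, a serine peptidase inhibitor. In both groups the shRNA sat in a lentiviral, doxycycline-inducible vector, the cells were a puromycin-selected line, and doxycycline was given continuously. How long the cells had been on doxycycline when RNA was extracted is not given in the sources used here, and nothing says that the 3 libraries of a group came from separate cultures, so all errors measure the spread between libraries, which may be technical.

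P2Y receptors are cell-surface receptors that signal through G proteins when nucleotides leave stressed, dying or activated cells. *P2RY1* (ADP), *P2RY2* (ATP and UTP), *P2RY6* (UDP) and *P2RY11* (ATP) activate phospholipase C and release calcium, and *P2RY11* also raises cyclic AMP. *P2RY12* and *P2RY13* (both ADP) and *P2RY14* (UDP-sugars) act through inhibitory G proteins that lower cyclic AMP, and *P2RY12* is best known as the platelet ADP receptor. *P2RY8* and *P2RY10* carry the family name but are known for lipid-derived ligands. *P2RY8* couples to *GNA13* and restrains the migration and growth of germinal centre B cells. Blood cells express most of these receptors, with monocytes and macrophages among the main carriers of *P2RY13*.

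The table holds 1 mean per gene over the 6 libraries and no value per library. Whole reads per library were recovered from that mean for 32119 of the 32220 genes with reads, including all 9 members. Recovered reads came to between 31407231 and 32208106 per library, and the 101 genes without recovered reads hold 17.5% of the summed means. A library can be placed in its group but not matched to a replicate number, so the libraries of a group are called a, b and c in an arbitrary order. Pairs of libraries of 1 group differed by more than sampling noise, with a chi-square per gene of 1.80 to 5.46, and pairs across groups by 71.2 to 76.8. *SPINK2* had 56, 63 and 53 reads in shNEG and 7, 9 and 6 in shSPINK2, with no overlap. The reads were placed in groups by the sign of the deposited comparison, so *SPINK2* is no independent check of the labels. Of the 8 myeloid blast markers, *PTPRC*, *CD33*, *MPO*, *SPI1*, *CEBPA* and *LYZ* were abundant, *CD34* had a mean of 19.6 reads and *KIT* of 0.67. Erythroid markers had at most 1 read in a library, and *CD3D*, *CD3E* and *CD3G* at most 7. The 4 T cell markers summed to 394 to 418 normalised reads in shNEG and 193 to 218 in shSPINK2, nearly all of them *TRAC*. The platelet genes *PF4* and *PPBP* had at most 1 read in a library. The 4 platelet or megakaryocyte markers together summed to 116 to 162 normalised reads, most of them *GP1BA*. The 4 B cell markers summed to 175 to 281 and the 4 epithelial markers to 79.4 to 121.

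The 2 sequences that the study designed against *SPINK2* are shown with capitals on the 7 bases that lie opposite positions 2 to 8 of the guide strand, if the guide starts at the last base of its target. The sample protocol lists both and the methods name shRNA1.

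shRNA1 target: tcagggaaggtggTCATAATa

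shRNA2 target: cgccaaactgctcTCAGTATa

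Each full target occurred once in the canonical *SPINK2* transcript and in no canonical transcript of a P2Y member. The shorter TCATAAT was present once each in the *P2RY1* and *P2RY12* transcripts, and in 13% of the canonical transcripts of 21719 tested genes. TCAGTAT was present once each in *P2RY8* and *P2RY12*, against 16.3% of those transcripts. The *P2RY13* transcript of 2765 bases held neither of them. A match is a description and not a site of silencing.

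*P2RY13*, *P2RY12* and *P2RY14* lie side by side on the minus strand of chromosome 3, at bases 151326312 to 151329549, 151336843 to 151384753 and 151212117 to 151278542 of GRCh38 (GENCODE release 44). The 250 bases before the outermost RefSeq start of each (GRCh38.p14) are printed 5′ to 3′ on the strand of the gene, because these neighbours differ most in level. They lie at chr3:151329550-151329799, chr3:151384754-151385003 and chr3:151278543-151278792. Capitals mark GAGGAA, the core bound by PU.1, the product of *SPI1*, and TTNNGCAA, part of a C/EBP site, searched on both strands.

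P2RY13: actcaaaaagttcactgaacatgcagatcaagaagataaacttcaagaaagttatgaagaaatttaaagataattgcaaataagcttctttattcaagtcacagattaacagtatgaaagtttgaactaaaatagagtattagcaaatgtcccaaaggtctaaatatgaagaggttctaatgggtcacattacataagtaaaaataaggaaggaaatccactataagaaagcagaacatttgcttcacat

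P2RY12: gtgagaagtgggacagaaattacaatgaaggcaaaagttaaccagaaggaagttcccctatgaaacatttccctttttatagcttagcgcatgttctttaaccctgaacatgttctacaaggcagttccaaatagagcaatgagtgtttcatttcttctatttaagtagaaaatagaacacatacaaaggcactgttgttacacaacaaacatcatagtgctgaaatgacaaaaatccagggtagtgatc

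P2RY14: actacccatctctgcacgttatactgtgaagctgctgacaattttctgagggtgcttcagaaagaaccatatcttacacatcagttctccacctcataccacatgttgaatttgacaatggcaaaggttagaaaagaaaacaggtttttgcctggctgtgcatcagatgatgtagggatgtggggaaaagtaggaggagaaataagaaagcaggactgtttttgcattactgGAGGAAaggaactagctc

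GAGGAA stood 18 bases before the outermost start of *P2RY14* and in neither the *P2RY13* nor the *P2RY12* window. It occurs in 23.6% of 35114 RefSeq windows, and TTNNGCAA, which none of the 3 windows held, in 9.05%. The windows searched were longer than those printed and reached past the start, as chr3:151278493-151278792 for *P2RY14*. An inner RefSeq start of *P2RY14*, not printed here, has TTNNGCAA 129 bases before it. The window of an inner *P2RY12* start held neither motif. These letters say nothing about binding. The *P2RY13* window was 30% G and C and held no CpG, and the *P2RY12* and *P2RY14* windows held 1 CpG each. At the other end of the family, the window of *P2RY1* was 74% G and C with 28 CpG. RefSeq windows were matched for *P2RY1*, *P2RY8*, *P2RY10*, *P2RY11*, *P2RY12*, *P2RY13* and *P2RY14*, and not for *P2RY2* and *P2RY6*.

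In control cells the members ranged from one of the more abundant genes of the table to a gene with hardly a read. Levels are compared between genes as normalised reads per kilobase of the gene's exons, where normalised means divided by the authors' size factor of the library. In shNEG *P2RY8* led with 2107 ± 64.5 (SD, n = 3), followed by *P2RY11* with 474 ± 12.01 and *P2RY2* with 278 ± 6.80. *P2RY1* had 114 ± 2.52 and *P2RY6* 90.8 ± 2.79 normalised reads per kilobase. *P2RY13* stood in sixth place with 12.6 ± 0.98, below *P2RY6* and above *P2RY14* with 2.77 ± 1.03 and *P2RY12* with 2.71 ± 0.66. *P2RY10* was last with 0.19 ± 0.32. Of these neighbours in the order, *P2RY14* and *P2RY12* overlapped in their shNEG libraries, and no other adjacent pair did. *P2RY8* thus made up 68.4% of the per-kilobase level of the family in shNEG and 74.2% in shSPINK2, and *P2RY13* 0.41% and 1.94%. Without division by length *P2RY2* stood above *P2RY11*, and *P2RY6* above *P2RY1*. Per kilobase of the longest coding transcript the order was that given first. The canonical *P2RY6* transcript has 2356 bases against 10778 bases of exon in the gene, so the place of *P2RY6* rests on the length used.

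*P2RY13*, the inhibitory ADP receptor, had 32, 36 and 37 reads in shNEG and 186, 218 and 175 in shSPINK2. Every shSPINK2 library lay far above every shNEG library, and the lowest normalised shSPINK2 value was 4.79 times the highest shNEG value. Normalised reads averaged 34.98 ± 2.71 in shNEG and 191 ± 21.5 in shSPINK2, which is 5.47 times the shNEG level. On the scale of log2(normalised reads + 1), used for all differences here, *P2RY13* was 2.41 higher (SE 0.14). Over 13 other ways of computing it the difference ran from 2.32 to 2.46. This was the ninth highest log2 difference of 21970 genes tested. Among the 14304 genes with a mean of at least 20 reads it was the fifth highest. These are the values that chose the family, so nothing further is read from them.

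**Figure D1:**
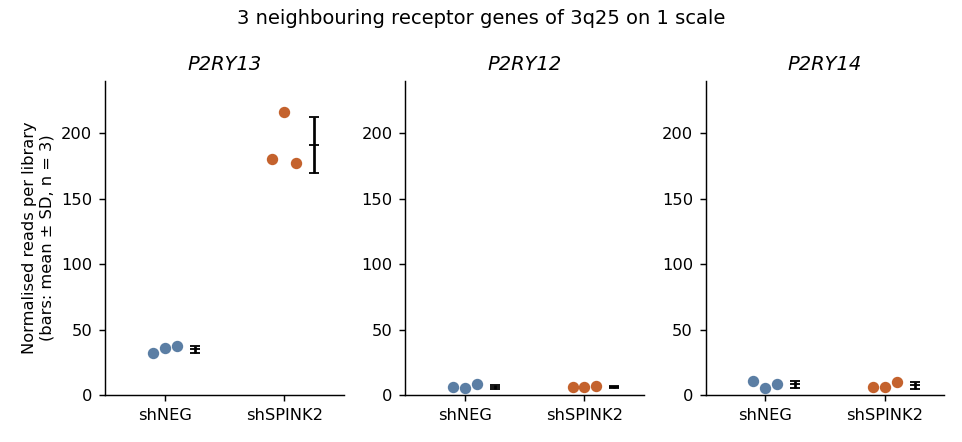
Normalised reads per library of *P2RY13*, *P2RY12* and *P2RY14* in shNEG and shSPINK2 on 1 linear scale (points, 3 libraries a group, and mean ± SD). *P2RY13* lies between 31.9 and 37.0 in shNEG and between 178 and 216 in shSPINK2, while *P2RY12* and *P2RY14* stay at or below 10.97 in all 6 libraries.

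*P2RY12*, the platelet ADP receptor, had 6, 5 and 8 reads in shNEG and 6, 6 and 7 in shSPINK2. *P2RY14*, the UDP-glucose receptor, had 11, 5 and 8 reads in shNEG and 6, 6 and 10 in shSPINK2. The groups overlapped in both genes. The log2 difference of *P2RY12* was 0.01 (SE 0.41) and that of *P2RY14* was -0.10 (SE 0.40), and at fewer than 12 reads a library a change of moderate size was not detectable. Their sign also turned with the setting, from -0.13 to 0.17 for *P2RY12* and from -0.36 to 0.14 for *P2RY14*. Together the 3 inhibitory receptors had 49, 46 and 53 reads in shNEG and 198, 230 and 192 in shSPINK2. *P2RY13* supplied 65.3%, 78.3% and 69.8% of these reads in the shNEG libraries. In the shSPINK2 libraries it supplied 93.9%, 94.8% and 91.1%. Over the 3 libraries of a group the Wilson 95% intervals of these shares spanned 51.3% to 87.7% in shNEG and 86.3% to 97.0% in shSPINK2. They cover counting error only, and the shares restate the reads of *P2RY13*.

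Of the calcium-coupled receptors *P2RY1* and *P2RY11* were lower in shSPINK2, and *P2RY2* and *P2RY6* overlapped between the groups. *P2RY1* lies apart from the inhibitory receptors on chromosome 3 (bases 152835131 to 152841439), *P2RY2* and *P2RY6* lie near each other on chromosome 11 (73218281 to 73242427 and 73264498 to 73305103), and *P2RY11* lies on chromosome 19 (10111693 to 10115372), all on the plus strand of GRCh38. *P2RY1*, an ADP receptor, had 712, 735 and 704 reads in shNEG and 581, 600 and 580 in shSPINK2. All 3 shSPINK2 libraries lay below all shNEG libraries, with a log2 difference of -0.30 (SE 0.06) and a ratio of mean normalised reads of 0.81. *P2RY11*, the ATP receptor, had 993, 1042 and 1010 reads in shNEG and 852, 752 and 790 in shSPINK2. It too was lower without overlap, at 0.78 times the shNEG mean, with a log2 difference of -0.36 (SE 0.06). *P2RY2*, the ATP and UTP receptor, had 2564, 2473 and 2436 reads in shNEG and 2690, 2541 and 2588 in shSPINK2. *P2RY6*, the UDP receptor, had 1004, 945 and 989 reads in shNEG and 1087, 994 and 1005 in shSPINK2. In both genes the normalised values of the groups overlapped, with log2 differences of 0.05 (SE 0.05) for *P2RY2* and 0.06 (SE 0.05) for *P2RY6*. *P2RY4*, the remaining UTP receptor and not one of the 9, had 2, 0 and 2 reads in shNEG and 4, 0 and 1 in shSPINK2.

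The lipid-ligand receptors stood at the ends of the family. *P2RY8* had 9889, 9297 and 9455 reads in shNEG and 12056, 12066 and 12061 in shSPINK2. It was higher in every shSPINK2 library, at 1.25 times the shNEG mean, with a log2 difference of 0.33 (SE 0.04). It ranked 600 of 63236 genes by mean. *P2RY10*, also on chromosome X (bases 78945332 to 78963727), had 2, 0 and 0 reads in shNEG and 1, 0 and 2 in shSPINK2. Both groups are at or below what a count of 0 allows, which is 3 reads, so no fold is given. *P2RY8* lies in the pseudoautosomal region of chromosome X (bases 1462581 to 1537185), and its separate row for the Y copy is listed at 0. In reads summed over the 9 members the shift of *P2RY8* outweighed that of *P2RY13*. The members held 14529 to 15170 normalised reads in shNEG and 16904 to 17473 in shSPINK2, and *P2RY8* supplied 63.9% to 65.0% of them in shNEG and 69.0% to 70.2% in shSPINK2.

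All 9 members had reads, and 8 passed the filter of at least 10 reads over the 6 libraries. *P2RY10* did not. Of the 8, *P2RY8* and *P2RY13* were called higher and *P2RY1* and *P2RY11* lower at an adjusted p under 0.05, which is 4 members. This count describes the comparison that chose them and is no test of them. Of all genes tested, 43.3% were called, 21.2% higher and 22.1% lower. The groups did not overlap in the same 4 members, against 50.4% of all genes tested. With a log2 difference over 1 as well, 1 member was called, *P2RY13*, against 2.22% of all genes called higher and 2.98% called lower. The median log2 difference was 0.03 over the 8 members and 0.00 over all genes tested. Since the comparison chose the members, nothing is read from these counts.

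Genes that share sequence or borders with a member were checked next, since the strand setting of the counting is not given in the sources used here and reads of overlapping genes cannot then be told apart. *MED12L*, a Mediator subunit gene that runs across *P2RY12*, *P2RY13* and *P2RY14* on the opposite strand, had 269, 265 and 256 reads in shNEG and 213, 210 and 218 in shSPINK2. It fell by 0.31 on the log2 scale (SE 0.09, limma adjusted p = 0.0033), against the direction of *P2RY13*. No exon of *MED12L* overlaps an exon of *P2RY13* or *P2RY14*, but exons of *MED12L* and *P2RY12* do overlap. Whether the few reads of *P2RY12* include reads of *MED12L* was not tested. *GPR171*, a receptor gene 8901 bases from *P2RY14*, had at most 2 reads in a library. *SUCNR1*, the succinate receptor of the same chromosome band, had 5724, 5599 and 5828 reads in shNEG and 8064, 9323 and 7820 in shSPINK2, a rise of 0.54 (SE 0.05, limma adjusted p = 3.8e-11). Of the 10 further genes listed for that band 4 were tested, of which *SUCNR1* and *MBNL1* rose, *MED12L* fell and *SIAH2* passed no threshold.

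The gene *PPAN*, a ribosome biogenesis factor, shares exons with *P2RY11* on the same strand. It had 715, 717 and 681 reads in shNEG and 578, 497 and 574 in shSPINK2, a fall of 0.37 (SE 0.07, limma adjusted p = 1.6e-05). That value is close to the -0.36 of *P2RY11*, and the readthrough gene *PPAN-P2RY11* had at most 4 reads in a library. *EIF3G*, which overlaps *P2RY11* from the opposite strand and is far more abundant, differed by 0.08 (SE 0.05, limma adjusted p = 0.17). How much of the *P2RY11* value comes from *PPAN* reads was not tested. *DNMT1*, the maintenance DNA methyltransferase 17970 bases away, fell by 0.86 (SE 0.05, limma adjusted p = 2.4e-16), and *SHFL*, an interferon-induced gene, rose by 0.64 (SE 0.09, limma adjusted p = 2.2e-07). Near *P2RY8*, *ASMTL* rose by 0.25 (SE 0.06, limma adjusted p = 0.00062). The unnamed long noncoding RNA gene that overlaps *P2RY2* on the same strand had 2165 to 2269 reads in shNEG and 2282 to 2433 in shSPINK2, with a difference of 0.09 (SE 0.05, limma adjusted p = 0.12). *ARHGEF17*, 3173 bases from *P2RY6*, rose by 0.25 (SE 0.08, limma adjusted p = 0.013).

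The rest of the purinergic system was described from lists. P2Y receptors share their ligands with the P2X channels, the ligands are released through channels and vesicles, and surface enzymes break them down to adenosine, which has receptors and transporters of its own. Over these 5 lists 34 genes were tested, of which 12 rose and 6 fell, with a median log2 difference of 0.14. Of all genes tested 21.2% were called higher and 22.1% lower, and each list count below is to be read beside these shares. Over all lists of this report 98 genes were tested, of which 32 rose and 22 fell. Of the 7 P2X genes, which encode ATP-gated ion channels, 5 were tested and 3 rose. *P2RX1* had 1457, 1429 and 1452 reads in shNEG and 2373, 1962 and 1980 in shSPINK2, a rise of 0.52 (SE 0.05, limma adjusted p = 5e-10). *P2RX5* rose from a mean of 70.9 to 124 normalised reads (0.80, SE 0.13, limma adjusted p = 3.4e-06) and *P2RX4* from 697 to 902 (0.37, SE 0.06, limma adjusted p = 2.9e-06). *P2RX2* fell from 23 reads in all to 3, a ratio of 0.13 with an exact counting interval of 0.025 to 0.43 (limma adjusted p = 0.001). *P2RX7*, the channel known for inflammasome activation, had 43, 32 and 50 reads in shNEG and 33, 30 and 31 in shSPINK2 (limma adjusted p = 0.14).

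Among 18 genes listed as ectonucleotidases and adenosine deaminases, not all of which encode surface enzymes, 13 were tested and 6 rose. None was called lower with limma, also at an unadjusted p under 0.05 (0 genes), and 0 with edgeR or DESeq2. The median of this list was 0.23. *ADA2*, a secreted adenosine deaminase of myeloid cells, rose from 56.6 to 109 normalised reads (0.94, SE 0.14, limma adjusted p = 1.3e-06). *ACP3*, a phosphatase that acts on AMP, rose from 1367 to 2064 (0.59, SE 0.05, limma adjusted p = 1.8e-12). *ENTPD1*, the ATP- and ADP-cleaving enzyme CD39, had 2713, 2603 and 2581 reads in shNEG and 2700, 2826 and 2717 in shSPINK2 (0.05, SE 0.05, limma adjusted p = 0.42). Among genes of the list with a mean of at least 10 *ENTPD7* was the lowest at 0.05. *NT5E*, the AMP-cleaving enzyme CD73, had at most 5 reads in a library. *ACP3* and *ENTPD1* were named after their values were seen.

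Of 8 tested genes for nucleotide release *ABCC1* rose and 3 fell. *SLC17A9*, the vesicular ATP transporter, fell from 4072 to 3283 normalised reads (-0.31, limma adjusted p = 1.8e-06), and *CALHM6* fell furthest from 600 to 412 (-0.54, SE 0.07, limma adjusted p = 3.3e-08). *PANX1*, a channel for ATP, had a difference of -0.01. *PANX2*, the highest of the list at 0.64 (SE 0.30), had 10 to 20 reads a library (limma adjusted p = 0.086). Of the adenosine receptors *ADORA2B* fell by 0.28 (SE 0.07, limma adjusted p = 0.00073), and *ADORA3*, the highest at 0.13 (SE 0.27), had 17 to 33 reads a library. Of the transporters *SLC29A1*, the main equilibrative nucleoside carrier, fell from 5097 to 3147 normalised reads, a ratio of 0.62 (-0.70, SE 0.05, limma adjusted p = 2.6e-14). *SLC29A4* rose by 0.55 (SE 0.13, limma adjusted p = 0.00043), and *SLC29A3* rose as well.

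The genes that carry the signal inward moved in both directions. All 13 G protein alpha subunits were tested. Beside 21.2% called higher and 22.1% called lower over all genes, 4 of them rose and 4 fell, with a median of 0.02. Of those that serve inhibitory receptors, *GNAI2* rose by 0.18 from 24259 to 27554 normalised reads and *GNAI3* fell by 0.16. *GNAZ*, an inhibitory subunit, fell from 39, 47 and 55 reads to 17, 18 and 14 (-1.47, SE 0.23, limma adjusted p = 1.9e-06). *GNA14*, of the phospholipase-activating class, was the highest at 0.60 (SE 0.09, limma adjusted p = 3.5e-07), from 226 to 343 normalised reads. Others of that class did not rise. *GNAQ* fell from 4754 to 4194 (-0.18, SE 0.05, limma adjusted p = 0.0013) and *GNA11* from 408 to 291 (-0.48, SE 0.08, limma adjusted p = 1.9e-06). *GNA15* was not called (0.02, SE 0.05). Of 17 phospholipase C beta, IP3 receptor and adenylyl cyclase genes 14 were tested, 4 rose and 5 fell. *ADCY4*, an adenylyl cyclase, rose from 58, 71 and 53 reads to 170, 124 and 146 (1.25, SE 0.14, limma adjusted p = 3.9e-09). *ITPR3*, a calcium channel of the endoplasmic reticulum, fell from 1661 to 813 normalised reads (-1.03, SE 0.05, limma adjusted p = 2.2e-17), and its relatives *ITPR1* and *ITPR2* rose by 0.48 and 0.45. Of the arrestins, receptor kinases and RGS proteins 15 were tested, 3 rose and 2 fell. *RGS18*, which shortens inhibitory and phospholipase-linked signals in blood cells, was highest at 0.61 (SE 0.05, limma adjusted p = 1.3e-11), and *GRK6*, a receptor kinase, was lowest at -0.74 (SE 0.05, limma adjusted p = 1.9e-15). *GNAI2*, *GNAI3*, *GNAQ*, *GNA11*, *GNA15*, *ITPR1* and *ITPR2* were named after their values were seen.

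The genes around *P2RY8* were taken as a list of their own. Its ligand is a glutathione conjugate that *ABCC1* exports and *GGT5* breaks down, and its signal runs through *GNA13* and *ARHGEF1*. Of 8 genes 7 were tested, 3 rose and 2 fell, with a median of -0.01. *GGT1*, a gamma-glutamyltransferase, had 506, 473 and 502 reads in shNEG and 1114, 1009 and 1032 in shSPINK2 (1.08, SE 0.06, limma adjusted p = 1.1e-16). *LTC4S*, which joins glutathione to a leukotriene, had 287, 268 and 263 reads in shNEG and 568, 547 and 599 in shSPINK2 (1.05, SE 0.07, limma adjusted p = 4.5e-14). *GGT1* is one of several near-identical copies, so its reads are uncertain. *GGT5* had 31, 38 and 35 reads in shNEG and 37, 16 and 21 in shSPINK2 (-0.57, SE 0.25, limma adjusted p = 0.068). *GNA13* had a difference of -0.01 (SE 0.05), and *ARHGEF1* fell by 0.44 (SE 0.05, limma adjusted p = 4.7e-10).

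Of 22 receptors that resemble the P2Y family in sequence 14 were tested. Beside 21.2% called higher and 22.1% called lower over all genes, 6 of them rose and 2 fell, with a median of 0.32. *PTAFR*, the receptor for platelet-activating factor, was the highest and rose from 313 to 591 normalised reads (0.92, SE 0.07, limma adjusted p = 1.3e-12). *GPR183*, the oxysterol receptor that guides leukocyte migration, was the lowest and fell from 566, 508 and 583 reads to 189, 221 and 180 (-1.50, SE 0.08, limma adjusted p = 1.2e-16). *SUCNR1*, described above, belongs to this list too. Summed over 6 markers, those of mature monocytes and macrophages also stood higher in shSPINK2. They came to between 7750 and 7971 normalised reads in shNEG and between 9808 and 10285 in shSPINK2. Most of the sum was *FCGR1A*, *ITGAM* and *CSF1R*, each called higher. *CD163* was higher but not called (0.68, limma adjusted p = 0.088). *CD14*, at 0 to 8 reads a library, was lower but not called (-0.92, limma adjusted p = 0.25), and *CD300E* had 0 reads. The myeloid blast markers with recovered reads summed to between 58838 and 62101 in shNEG and between 63053 and 66485 in shSPINK2. The largest share of that sum was *CEBPA*, which was not called, and the markers moved both ways, with *PTPRC* (0.32) and *CD33* (0.36) called higher and *MPO* (-0.40) and *CD34* (-0.83) called lower. The part of this shift in the level of *P2RY13* was not tested, and in bulk RNA fewer cells of a type and less RNA per cell cannot be told apart.

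The genes closest to *P2RY13* over the 6 libraries were found by the root mean square distance of log2 values, each centred on the gene's own mean, among 14303 other genes with a mean of at least 20. *TMEM63C* was nearest at a distance of 0.14, with 19, 22 and 25 reads in shNEG and 129, 119 and 128 in shSPINK2. *SMIM14* (0.16), *TP53INP2* (0.16), *RENBP* (0.18) and *NPAS1* (0.18) followed. With 3 libraries a group, likeness is mostly likeness of the difference between groups, which for these 5 genes ran from 2.18 to 2.51 beside the 2.41 of *P2RY13*. By Pearson correlation 360 genes were above 0.99 to *P2RY13*, and the 5 highest shared none with these 5.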

How the data were processed

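RNA of 3 shNEG and 3 shSPINK2 libraries was sequenced as paired 150-base reads by the authors, aligned to GRCh38 with STAR, counted per gene with featureCounts and compared with DESeq2. The submitters' processing notes name STAR 2.7.11 and DESeq2 1.40.0. The annotation release, the strand setting and whether reads or pairs were counted are not given in the sources used here. The deposited table holds a signal per gene, the mean over 6 libraries of counts that the authors divided by size factors, and the authors' own comparison (log2 fold change, its standard error, statistic, p-value and adjusted p-value).

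Since each mean is a sum of whole reads times 6 known weights, written to 15 digits, the reads per library were solved from it. The deposited log2 fold changes and standard errors served to place libraries in groups and to choose among solutions, and are not reported. The recovery and the test were first tested on simulated data. The main test was limma 3.58.1 (trend) on log2(normalised reads + 1) over genes with at least 10 reads, with Benjamini-Hochberg adjustment over all 21970 genes. A gene was called at an adjusted p under 0.05. edgeR 4.0.16 and DESeq2 1.42.0 were run on the recovered reads as alternatives. Named genes are the members, *P2RY4*, *SPINK2*, genes that overlap or neighbour a member, list genes with a log2 difference over 1 and the extremes of each list over a mean of 10, and the 5 genes most like *P2RY13*. Others are said to be named after their values were seen, which also holds for markers and for *P2RX1*, *P2RX4*, *NT5E*, *PANX1*, *ABCC1*, *SLC17A9*, *SLC29A3*, *GNA13*, *ARHGEF1*, *MBNL1* and *SIAH2*. The members and all lists were chosen with earlier results of these data known.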

Additional observations from a re-analysis of the deposited data

How the results depend on the processing

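The log2 differences of the 8 members with enough reads moved by less than the spread between libraries under every alternative that gave them a value. Over all genes, the 488 called higher with a log2 difference over 1 became 248 with a pseudocount of 4, 276 with a mean of at least 10 and 294 with DESeq2, and the 655 called lower became 425 with a pseudocount of 4. Without a threshold on the difference 4661 were higher and 4862 lower, and with 1.5 in its place 162 and 157. Leaving out 1 library gave 385 to 519 higher and 570 to 648 lower. Ranked by Pearson correlation, the genes most like *P2RY13* shared 0 with the 5 named. The rank of *P2RY13* in the family and the counts of list genes that rose or fell did not move past 1.5 times under any alternative. No paired analysis was possible because the recovered libraries carry no replicate number. Where a count changed, the cause was not tested. *P2RY10*, *P2RY12* and *P2RY14* are limited by depth, and all p-values by 3 libraries a group.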
